A study of Homo sapiens with 8 samples.

Results

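The leucine tRNA with the anticodon CAA, tRNA-Leu-CAA, was followed through its mature references and its nuclear gene loci. Members were all listed peaks on a tRNA reference named tRNA-Leu-CAA, plus all genome peaks that overlapped 4 windows on chromosomes 1 and 6 that hold tRNA-Leu-CAA genes. This gave 61 of 4746 peaks in the 8 libraries, which merged into 9 of 1373 regions: 5 mature references and 4 gene loci. Identical copies 1-1 and 1-2 share 1 mature reference, written here as 1-1/1-2, and the others are 2-1, 3-1, 4-1 and 6-1. The RNA came from HEK-293, an established line from human embryonic kidney, grown as wild type (WT) or with ALKBH1 knocked out (KO). Total RNA of both genotypes was cut to about 150 nt and treated alike with 2 mM aldehyde-reactive probe (ARP), a biotin-bearing reagent that couples to aldehydes, with anisidine, for 24 h. Part of that probe-treated RNA was sequenced as input, and the rest after streptavidin pulldown (IP), which gave the groups WT input, WT IP, KO input and KO IP with 2 libraries each. The study's text calls the replicates biological, but the labels do not say that they were separate cultures, so part of the spread behind p-values may be technical. The labels also do not name the knockout clone, so ALKBH1 and any other difference between the lines cannot be told apart.

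As background, tRNA-Leu-CAA decodes UUG codons, and its nuclear genes hold a short intron just 3′ of the anticodon, which is spliced out of the precursor. The cytosine at the wobble place, the first anticodon base, is methylated by NSUN2 and can be oxidised further by ALKBH1, an Fe(II)- and α-ketoglutarate-dependent dioxygenase, to 5-hydroxymethylcytidine and 5-formylcytidine. 5-Formylcytidine carries the aldehyde that ARP labels. Mitochondrial tRNA-Met, methylated by NSUN3, is another tRNA known to carry it at the wobble place.

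The mature sequences are shown because isodecoders, tRNAs with a shared anticodon and different bodies, differed in a single place among those from intron-holding genes. Each was read from GRCh38 over the RefSeq gene, with the intron taken out between the anticodon loop and the 3′ side of the anticodon stem, since the annotation used here gives no intron. Capitals mark the anticodon and, for these genes, the bases that differ. The intronless 6-1 follows with its anticodon in capitals.
tRNA-Leu-CAA-1-1/1-2: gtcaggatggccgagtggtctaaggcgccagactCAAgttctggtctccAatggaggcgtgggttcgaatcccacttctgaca
tRNA-Leu-CAA-2-1: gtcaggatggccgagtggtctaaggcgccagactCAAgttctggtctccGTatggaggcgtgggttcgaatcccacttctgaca
tRNA-Leu-CAA-3-1: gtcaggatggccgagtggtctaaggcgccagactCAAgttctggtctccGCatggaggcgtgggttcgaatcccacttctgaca
tRNA-Leu-CAA-4-1: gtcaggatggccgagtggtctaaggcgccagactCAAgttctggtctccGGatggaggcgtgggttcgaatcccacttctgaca
tRNA-Leu-CAA-6-1: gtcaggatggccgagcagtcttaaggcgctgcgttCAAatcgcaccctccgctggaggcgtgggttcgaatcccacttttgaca
The genes TRL-CAA1-1 and TRL-CAA1-2 gave the same mature sequence of 83 nt, and TRL-CAA2-1, TRL-CAA3-1 and TRL-CAA4-1 gave 84 nt. In these 5 genes the first 49 and the last 33 bases were identical, and the wobble cytosine was at position 35 counted from the first base. Positions 50 and, in the longer forms, 51 set the isodecoders apart. Reads that do not cover these positions fit all of these references equally, and how such reads were assigned is not given. The split of counts among isodecoders is uncertain to that degree. RefSeq's TRL-CAA6-1, at chr1:161611946-161612029 on the minus strand, has 84 nt, the wobble cytosine at position 36 and 70 bases that match TRL-CAA1-1, so its body differs in many places.

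The precursors are shown because these genes differ from the mature references by their introns, given in capitals.
TRL-CAA1-1, chr6:28896223-28896328, minus strand: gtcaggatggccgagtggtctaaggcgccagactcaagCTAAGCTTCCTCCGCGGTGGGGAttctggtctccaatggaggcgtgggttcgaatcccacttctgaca
TRL-CAA1-2, chr6:28941053-28941157, plus strand: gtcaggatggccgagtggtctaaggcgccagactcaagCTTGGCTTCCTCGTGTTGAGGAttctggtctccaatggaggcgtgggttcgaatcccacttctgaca
TRL-CAA3-1, chr6:27602569-27602675, minus strand: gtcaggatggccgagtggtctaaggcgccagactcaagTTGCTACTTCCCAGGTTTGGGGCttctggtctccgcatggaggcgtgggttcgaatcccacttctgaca
TRL-CAA4-1, chr1:248873855-248873960, plus strand: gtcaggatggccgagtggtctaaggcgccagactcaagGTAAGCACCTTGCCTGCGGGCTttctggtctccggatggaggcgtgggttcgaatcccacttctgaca
Introns began at position 39 and ran for 23 nt in TRL-CAA1-1 and TRL-CAA3-1 and 22 nt in TRL-CAA1-2 and TRL-CAA4-1. All peaks on mature references were on the plus strand of the reference, and all locus peaks were on the strand of the gene.

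Each peak's value is its count of distinct cDNAs, told apart by molecular identifiers, and no peak under 10 was listed in any library. Summed over its peaks, a library held between 48380 and 285539 cDNA counts, with both KO inputs above the other 6 libraries, so levels are given per 1000000 summed counts (CPM). The minimum of 10 counts was worth 35.0 CPM in the deepest library, a KO input, and 207 in the shallowest, a WT IP. A missing peak was thus read as fewer than 10 counts, not absence. Whether the peak caller listed every site with 10 counts was not tested. No library listed a peak on ALKBH1 itself, and the genotype could not be checked from these lists.

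Mature tRNA-Leu-CAA was highest in the WT IPs. The reference with most counts in every library, tRNA-Leu-CAA-1-1/1-2, held 148 and 154 counts in WT before the pulldown and 459 and 369 after it. In KO it held 225 and 371 before and 38 and 36 after. As CPM, WT went from 1571 in both inputs to 7017 and 7627, while KO went from 1157 and 1299 to 711 and 690. Both WT IPs lay above all other libraries and both KO IPs below them.

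tRNA-Leu-CAA-4-1, the isodecoder with GG at the differing place, held 30 and 36 counts in WT input against 273 and 238 in WT IP, and 62 and 111 in KO input against 10 and 11 in KO IP. WT input lay at 318 and 367 CPM and KO input at 319 and 389, so the input groups overlapped. WT IP lay above them at 4173 and 4919 CPM, and KO IP below them at 187 and 211.

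The isodecoder with GC there, tRNA-Leu-CAA-3-1, held 31 and 39 counts in WT input and 189 and 150 in WT IP, then 92 and 120 in KO input and 11 in KO IP replicate 1 alone. tRNA-Leu-CAA-2-1, with GT, held 28 and 34 counts in WT input, 124 and 87 in WT IP, 54 and 91 in KO input, and 11 in KO IP replicate 1 alone. For both, the CPM of either WT IP exceeded that of every other library. tRNA-Leu-CAA-6-1 was listed once, with 23 counts in WT IP replicate 1 at positions 69 to 74, away from its wobble base. It had no test of its own, but its counts are part of the mature sum of that library and of the shares and tests built on it.

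**Figure D1:**
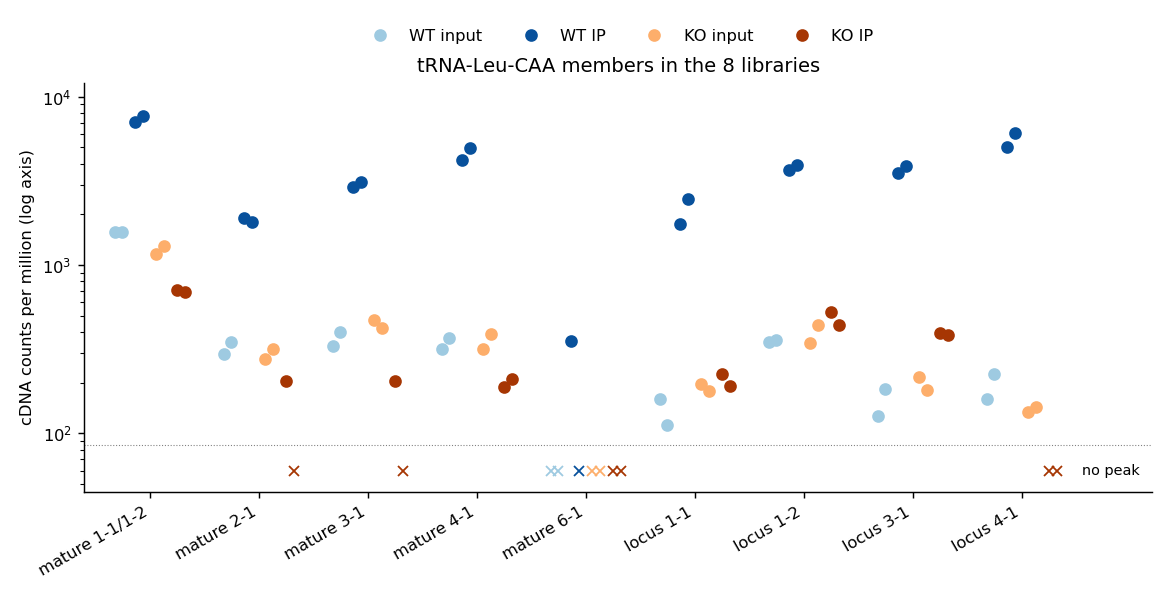
CPM (log axis) of the 9 members in the 8 libraries, 1 point a library and a cross where no peak was listed. Both WT IP points lie above the points of the other groups for all 8 members that have a peak in both WT IPs, and TRL-CAA4-1 has no peak in either KO IP.

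The gene loci showed an even wider range. TRL-CAA4-1 held 15 and 22 counts in WT input, 329 and 293 in WT IP and 26 and 41 in KO input, and neither KO IP listed a peak. Its WT IP mean of 5543 ± 726 CPM (SD, n = 2) was set against the 189 CPM that 10 counts are worth in the KO IPs. That puts it at least 29.3-fold lower there, if a missing peak holds fewer than 10 counts. It was the highest locus in the WT IPs, while in all 4 inputs TRL-CAA1-2 was the highest.

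The pulldown took TRL-CAA1-2 from 33 and 35 counts to 240 and 190 in WT, and from 67 and 125 to 28 and 23 in KO. TRL-CAA3-1 went from 12 and 18 counts to 230 and 186 in WT, and from 42 and 52 to 21 and 20 in KO. TRL-CAA1-1, the lowest locus of the WT IPs, went from 15 and 11 counts to 114 and 120 in WT, and from 38 and 51 to 12 and 10 in KO. KO libraries differed in depth, so these falls in counts were not falls in CPM: TRL-CAA3-1 stood at 393 and 384 CPM in KO IP against 216 and 182 in KO input, and TRL-CAA1-2 at 524 and 441 against 344 and 438.

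The first comparison asked what the pulldown enriched in WT cells. Mature tRNA-Leu-CAA, summed over its references, rose by 2.68 on the log2 scale (SE 0.16, edgeR quasi-likelihood test with Benjamini-Hochberg adjustment, adjusted p = 8.36e-05) where 51.9% of all sums and regions tested passed. The mt-tRNA-Met region, a merged mitochondrial peak region that overlaps part of that gene and also the mitochondrial isoleucine tRNA gene, rose by 3.62 (SE 0.19) in the same fit. Of the merged regions 48.1% passed, and all 8 members tested were among them, each higher in the IP. The log2 fold changes had a median of 2.71 for 4 mature references and 4.18 for 4 loci, against -0.17 over all 243 regions.

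For the genes with both kinds of member, 4-1, 3-1 and 1-1/1-2, both kinds rose in the same order. TRL-CAA2-1, outside the 4 windows, was not among the loci. It had 15 and 19 counts in WT input and 70 and 56 in WT IP, and its place in that order was not tested. Among mature references tRNA-Leu-CAA-4-1 rose most, by 3.66 (SE 0.22), followed by 3-1 at 2.97 (SE 0.21), 2-1 at 2.45 (SE 0.21) and 1-1/1-2 at 2.16 (SE 0.14). Of neighbours in that order, 2-1 and 1-1/1-2 differed by less than the sum of their SEs. Listed peaks of mature 4-1 spanned 21 and 16 nt in WT input and 44 and 23 nt in WT IP. Those of the other mature references tested were narrower in WT IP than in WT input. The part of these bounds in the order was not tested. TRL-CAA4-1 rose most among loci, by 4.78 (SE 0.27), then TRL-CAA3-1 at 4.48 (SE 0.26), TRL-CAA1-1 at 3.88 (SE 0.36) and TRL-CAA1-2 at 3.35 (SE 0.18). TRL-CAA4-1 and TRL-CAA3-1 lay within the sum of their SEs, as did TRL-CAA3-1 and TRL-CAA1-1, and TRL-CAA1-1 and TRL-CAA1-2. Adjusted p-values of the 8 members ran from 0.000802 to 0.00172 (edgeR).

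The second comparison asked the same of KO cells, and there the mature RNA went the other way. Summed tRNA-Leu-CAA fell by 1.26 (SE 0.24, edgeR adjusted p = 0.00347), beside 56.5% of sums and regions that passed. The sum counts a missing peak as 0, which touches 2-1 and 3-1 in KO IP replicate 2. The references with a peak in every library showed it too: 1-1/1-2 fell by 0.90 (SE 0.19, adjusted p = 0.00735) and 4-1 fell by 0.92 (SE 0.24, adjusted p = 0.0166). The call of 4-1 was lost without KO IP replicate 1 (-0.75, adjusted p = 0.132).

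No such fall was seen at the 3 loci tested in the KO. TRL-CAA4-1, with 26 and 41 counts in KO input and no peak in either KO IP, could not be tested. TRL-CAA3-1 rose by 0.87 (SE 0.24, edgeR adjusted p = 0.0198), while TRL-CAA1-2 at 0.21 (SE 0.22) and TRL-CAA1-1 at 0.07 (SE 0.26) did not pass. The call of TRL-CAA3-1 was lost without KO input replicate 2, without either KO IP, and with missing peaks set to 0 or to 10 counts, with values from 0.63 to 0.94 and adjusted p from 0.0544 to 0.163 (edgeR). In all, 3 of the 5 members tested passed, 1 higher and 2 lower, where 56.5% of the 246 regions did, so the share of members called is near the background. DESeq2 called 0 of the 5, with adjusted p from 0.0927 to 0.934.

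**Figure D2:**
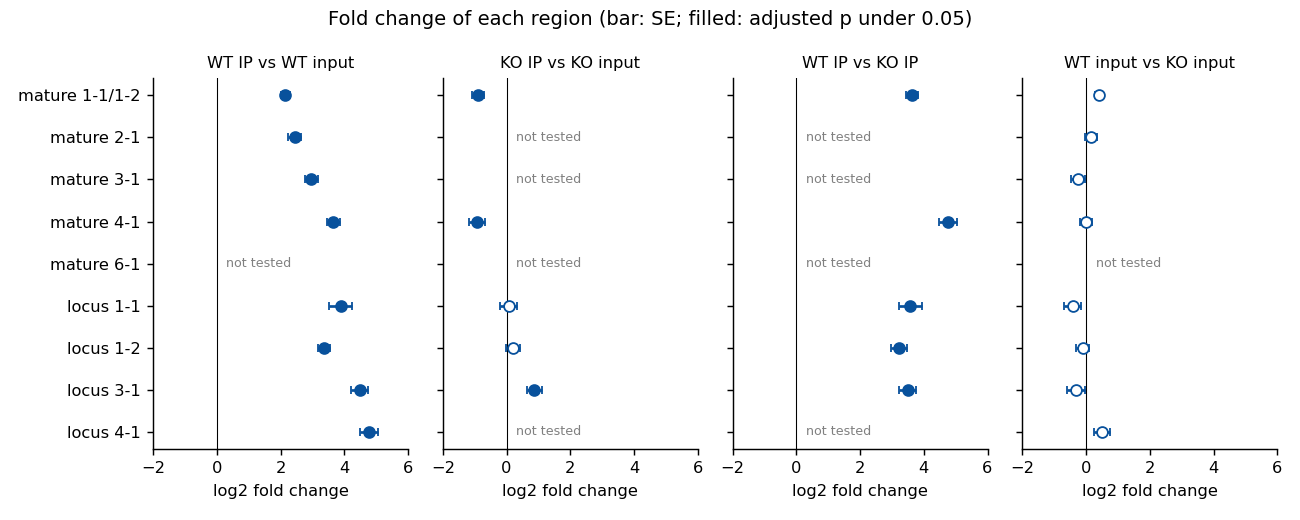
Log2 fold change of each member (points, bars ± SE, edgeR, 2 libraries a group) in 4 comparisons, filled where the adjusted p is under 0.05. In WT IP against WT input the points run from 2.16 to 4.78, in KO IP against KO input from -0.92 to 0.87, and between the inputs none is filled.

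Between the IPs, WT stood far above KO. Summed mature tRNA-Leu-CAA was higher in the WT IPs by 4.25 (SE 0.21, edgeR adjusted p = 0.000424) where 41.5% of sums and regions passed. That sum takes 2-1 and 3-1 as 0 in KO IP replicate 2, and it holds 6-1 in WT IP replicate 1 alone. Without KO IP replicate 1 the difference was 4.45 with an adjusted p of 0.0539, and without replicate 2 it was 4.00 with 0.0595 (edgeR), so leaving out either KO IP ended the call. The mt-tRNA-Met region differed by 3.39 (SE 0.16) in the same fit. Members with a peak in all 4 IPs numbered 5, and all 5 were higher in WT, beside 37.3% of the 220 regions called in either direction. Of those tested, tRNA-Leu-CAA-4-1 had the widest gap, 4.75 (SE 0.28, adjusted p = 4.77e-06), against 3.63 (SE 0.19) for 1-1/1-2, and the loci TRL-CAA1-1, TRL-CAA3-1 and TRL-CAA1-2 had 3.58 (SE 0.36), 3.49 (SE 0.27) and 3.22 (SE 0.26). TRL-CAA4-1, 2-1 and 3-1 could not be tested for want of a KO IP peak. With such peaks set to 0 or to 10 counts 8 of 8 members were called, beside 208 and 153 of the 429 regions then tested. TRL-CAA4-1, 2-1 and 3-1 entered those fits only through their WT IP peaks, so their calls were largely fixed in advance.

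The inputs gave the peak counts of tRNA-Leu-CAA in the probe-treated RNA of each genotype without the pulldown. These are counts of cDNAs in called peaks, and the amount of tRNA itself was not measured. Summed mature counts differed by 0.27 (SE 0.11, edgeR adjusted p = 0.109) with WT as the higher, while 28.6% of sums and regions passed. This direction turned when the other leucine anticodons served as library sizes (-0.20, adjusted p = 0.230). Of the 400 regions 35.2% passed and none of the 8 members did (DESeq2 also called 0 members). At an unadjusted edgeR p under 0.05 there was 1 member, tRNA-Leu-CAA-1-1/1-2, beside 207 of the 400 regions. tRNA-Leu-CAA-1-1/1-2 was nearest at 0.40 (SE 0.12, adjusted p = 0.0579), and it was called with RLE scaling, with the common CPM floor and among regions with a mean count of at least 50. The other 7 lay between -0.42 and 0.51, with SEs of 0.20 to 0.28.

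The difference between the pulldown effects in the 2 genotypes was itself tested, as an interaction. For the mature sum it was 4.32 on the log2 scale (SE 0.29, edgeR adjusted p = 1.72e-05), where 26.8% of sums and regions passed and the median over all of them was 0.19. Here too the sum takes 2-1 and 3-1 as 0 in KO IP replicate 2. All 5 members with a peak in every library passed, 30.1% of the 186 regions doing so. tRNA-Leu-CAA-4-1 had 4.92 (SE 0.33), TRL-CAA1-1 4.16 (SE 0.39), TRL-CAA3-1 3.95 (SE 0.36), TRL-CAA1-2 3.50 (SE 0.30) and 1-1/1-2 3.40 (SE 0.23), and the merged mt-tRNA-Met region had 3.92 (SE 0.21).

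Within the leucine tRNAs, tRNA-Leu-CAA changed from a minor to the leading part of the counts. Of cytosolic leucine tRNA counts it made up 16.2% (Wilson 95% interval 14.4 to 18.2) and 17.4% (15.6 to 19.4) in WT input, and 66.2% (63.8 to 68.4) and 63.7% (61.1 to 66.2) in WT IP. KO went the other way, from 17.9% (16.4 to 19.5) and 19.6% (18.3 to 21.0) before the pulldown to 11.3% (9.02 to 14.0) and 7.91% (6.002 to 10.4) after it. These intervals cover counting error only. The WT IP mean of 64.9 ± 1.75% exceeded the WT input mean of 16.8 ± 0.82% by 48.1 points and the KO IP mean of 9.59 ± 2.38% by 55.3 points (SD, n = 2 each; exact permutation p = 0.3333 for both, two-sided, the smallest that 2 against 2 allows).

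Other leucine tRNAs had no such rise. Their summed CPM was 12991 and 12751 in WT input and 8347 and 9942 in WT IP, which was lower, and 10201 and 9939 in KO input and 10315 and 10492 in KO IP. Leu-CAG held most of it, with 823 and 900 counts in WT input against 411 and 338 in WT IP, and Leu-TAA followed with 256 and 314 against 135 and 143. Leu-TAG and Leu-AAG had no peak in either WT IP. Of the regions on other leucine references, 0 of 3 passed for WT IP against WT input (3 had a negative fold change, from -0.33 to -0.27), 1 of 4 was higher and 2 lower for KO IP against KO input, 0 of 3 passed between the IPs and 1 of 6, tRNA-Leu-CAG-1-1 with its copies, was higher in WT between the inputs. In the interaction 0 of 3 passed, with 1 at an unadjusted edgeR p under 0.05, beside 74 of all 186 regions. At that level there were 0 for WT IP against WT input (131 of 243 regions) and 0 between the IPs (100 of 220).

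tRNA-Leu-CAA was then tested against leucine anticodons as a whole, a comparison within the leucine counts of each library. Relative to leucine tRNA as a whole (Leu-CAA, Leu-CAG and Leu-TAA had peaks in every library of the fit) it rose by 1.86 in the WT IPs (edgeR differential usage test, adjusted p = 1.66e-15), and fell by 1.05 in the KO IPs (adjusted p = 7.70e-07). Anticodons passed often in this test, 68% of 25 in WT and 53.3% of 30 in KO. The interaction was 2.91 (adjusted p = 4.87e-23), where 32% of 25 passed. For the KO the call was lost without KO IP replicate 2 (-0.74, adjusted p = 0.159) and with missing peaks kept at 0 (-0.96, adjusted p = 0.141).

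**Figure D3:**
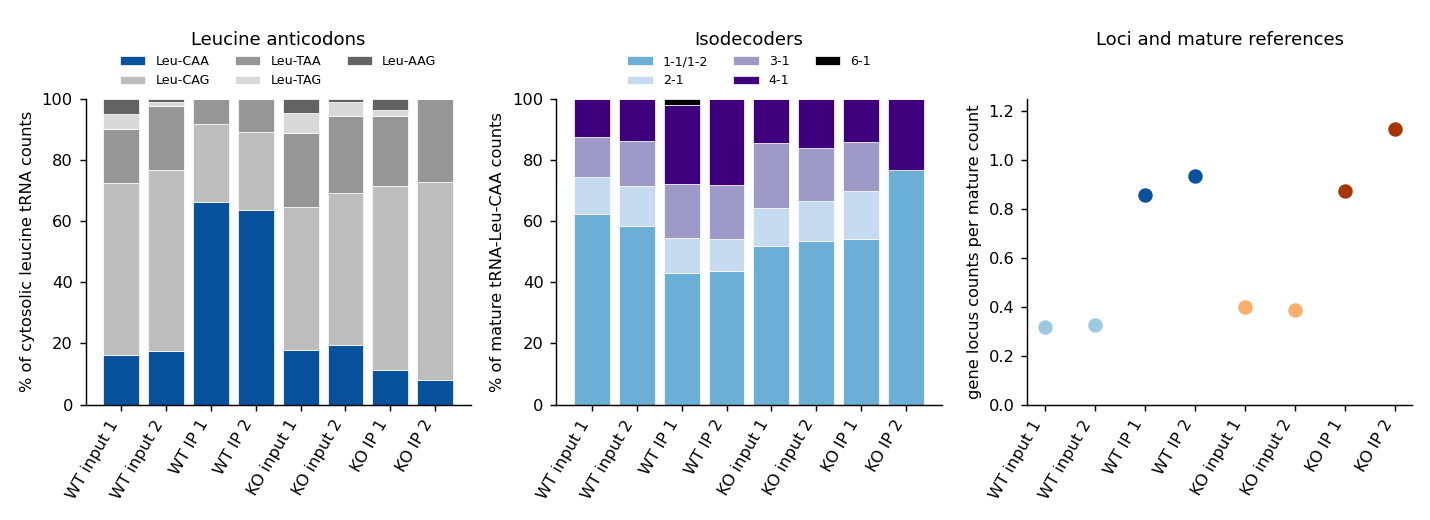
Composition of leucine tRNA counts by anticodon (left, % of cytosolic leucine counts), of tRNA-Leu-CAA counts by isodecoder (middle, % of mature counts) and the ratio of gene locus to mature counts (right), 1 bar or point a library. Leu-CAA takes 66.2% and 63.7% in the WT IPs, isodecoder 4-1 25.6% and 28.2% there, and the ratio is 0.85 or more in all 4 IPs and 0.40 or less in all 4 inputs.

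Isodecoders did not share equally in the WT pulldown. tRNA-Leu-CAA-4-1 went from 12.7% and 13.7% of mature tRNA-Leu-CAA counts in WT input to 25.6% and 28.2% in WT IP, while 1-1/1-2 went from 62.4% and 58.6% to 43.0% and 43.7%. The shares of 2-1 and 3-1 lay closer together, from 10.3% to 12.9% for 2-1 and from 13.1% to 17.8% for 3-1 in those 4 libraries. Listed peaks of 4-1 were wider in WT IP than in WT input, and the part of this in its share was not tested. Relative to the anticodon as a whole 4-1 rose by 1.03 in the WT IPs (edgeR differential usage test, adjusted p = 0.00805), and 1 of 4 references passed, beside 13.4% of all 82 references. Leaving out WT input replicate 1 or either WT IP ended that call (0.98 to 1.09, adjusted p from 0.0544 to 0.120).

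In KO cells 4-1 made up 14.3% and 16.0% before the pulldown, and 14.3% and 23.4% after it, from 10 and 11 counts. The 23.4%, in KO IP replicate 2, is a share of a sum in which 2-1 and 3-1 had no listed peak and counted as 0. Relative to the anticodon 4-1 shifted by -0.03 (edgeR adjusted p = 0.992). Between the IPs the relative difference of 4-1 was 0.78 (adjusted p = 0.107, 0 of 2 references called, 14.3% of 77 called) and in the interaction 1.11 (adjusted p = 0.152, 0 of 2 called, 3.95% of 76 called). At an unadjusted p under 0.05 4-1 was the 1 of 2 in both, beside 20 of 77 and 16 of 76 references. With the replicate number as a block 4-1 passed in both, at 0.78 (edgeR adjusted p = 0.0442) and 1.12 (adjusted p = 0.0232).

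Locus counts per mature count were higher in the IPs of both genotypes. For each mature count WT had 0.32 and 0.33 locus counts in its inputs and 0.85 and 0.93 in its IPs, and KO had 0.40 and 0.39 in its inputs and 0.87 and 1.13 in its IPs. All 4 IPs lay above all 4 inputs. Missing peaks count as 0 in these ratios, which touches TRL-CAA4-1 in both KO IPs and 2-1 and 3-1 in KO IP replicate 2. Summed CPM of the loci was 837 ± 57.4 in WT input against 15133 ± 1662 in WT IP, and 916 ± 37.2 in KO input against 1079 ± 88.6 in KO IP (SD, n = 2 each).

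Tested against the mature sum, the loci were shifted by 0.95 in the WT IPs (edgeR differential usage test, adjusted p = 0.0741, 20% of 50 sums called) and by 0.81 in the KO IPs (adjusted p = 0.246, 2.94% of 34 called), on the log2 scale and relative to both kinds together. Neither passed. In WT the shift passed without WT input replicate 1 (0.94, adjusted p = 0.0278) and without replicate 2 (0.97, adjusted p = 0.0452), and with the replicate number as a block (0.95, adjusted p = 0.00519). Input was drawn from the same treated RNA as the IP, but the labels do not say that equal numbers mark the same RNA. The interaction was 0.15 (adjusted p = 0.942, 8.82% of 34 called), and a genotype difference in this ratio was not detected. The KO IP sums in these tests also count missing peaks as 0, among loci and mature references alike, so the genotypes are not compared over the same listed members.

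Within the loci the WT shares changed as well. TRL-CAA4-1 held 20% and 25.6% of locus counts in WT input and 36.0% and 37.1% in WT IP. In KO it held 15.0% and 15.2% in the inputs and had no listed counts in the IPs. Its KO input level of 134 and 144 CPM lay below the 187 and 192 CPM that 10 counts are worth in the KO IPs. An unchanged level would thus not be listed there, and the KO IP shares of the other loci leave it out. TRL-CAA1-2 went from 44% and 40.7% to 26.3% and 24.1% in WT, and from 38.7% and 46.5% to 45.9% and 43.4% in KO. These shares are a description, with 2 libraries a group and no test.

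Peak boundaries on the mature references differed between most inputs and most IPs, with overlap. A listed position marks where a cDNA ended during library preparation, not the stretch a read covers. All 30 peaks on references with the wobble cytosine at position 35 included that position, and none reached beyond position 50. In the KO inputs all 8 peaks began at position 2 and ran to position 49 or 50, with widths of 48 to 49 nt. Of the 8 WT input peaks 6 began by position 10, and the median width was 44.5 nt.

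The IP peaks were narrower on most references, in both genotypes. Of the 8 WT IP peaks 6 began at position 26 or 27, which is 9 or 8 nt before the wobble base, and the median width was 21 nt. Of the 6 KO IP peaks 5 began at position 26 to 33, with a median width of 17.5 nt. tRNA-Leu-CAA-2-1 gave the clearest case, spanning positions 2 to 50 in all 4 inputs, 27 to 44 in both WT IPs and 33 to 38 in KO IP replicate 1. In WT, tRNA-Leu-CAA-4-1 went against this, with the narrowest input peaks (22 to 42 and 27 to 42) and wider IP peaks (6 to 49 and 27 to 49), while in KO it had 2 to 49 in both inputs against 27 to 43 and 26 to 43 in the IPs. The peaks of tRNA-Leu-CAA-1-1/1-2 in WT input replicate 2 and KO IP replicate 2 were alike, both from 6 to 48. Boundaries come from the peak caller run on each library alone, and the part of depth in them was not tested.

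**Figure D4:**
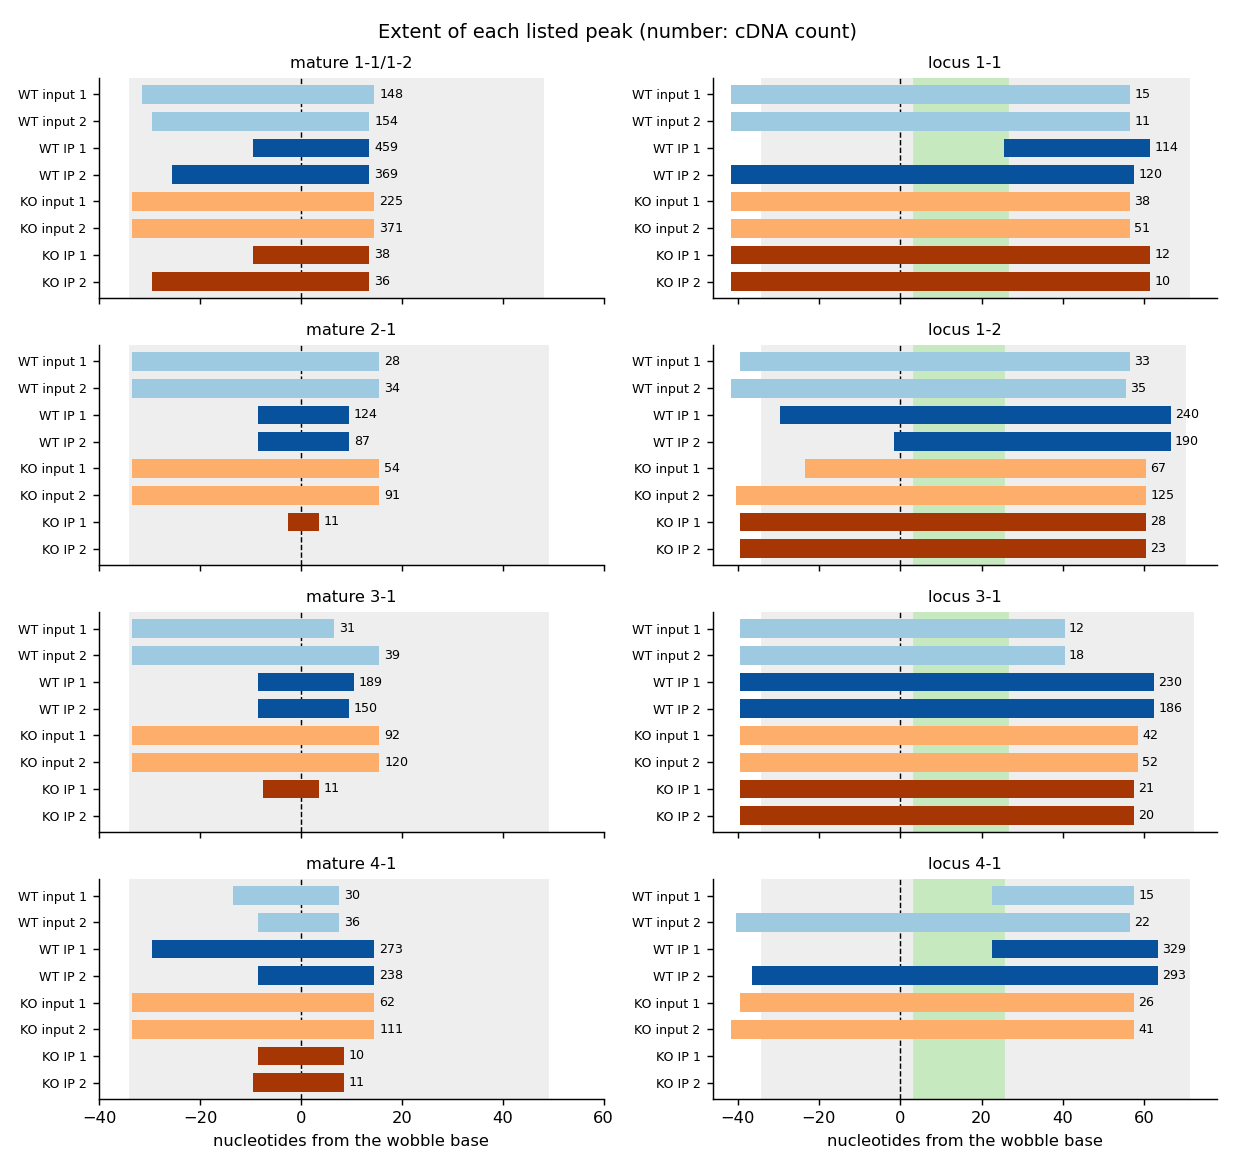
Extent of each listed peak in nucleotides from the wobble base (dashed line), for 4 mature references (left) and 4 gene loci (right), with the cDNA count at its right end. Grey marks the reference or gene and green the intron. Mature IP peaks mostly start 8 or 9 nt before the wobble base, and most locus peaks run through the intron towards the 3′ end.

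Locus peaks reached over the intron and past the gene's 5′ end. All 30 held at least 1 intron base, and 27 held the wobble base. In 24 of them the peak began upstream of the gene's first base, by up to 7 nt, in the 5′ leader of the precursor. The peaks ended between positions 75 and 101 of genes that are 105 to 107 nt long, so none reached the gene's last base. The median width was 96.5 nt for WT input, 97.5 for WT IP, 98 for KO input and 100 for KO IP. The medians thus showed no narrowing in the IPs like that on the mature references. Single WT IP peaks were narrower, at 36 nt (TRL-CAA1-1, replicate 1), 41 nt (TRL-CAA4-1, replicate 1) and 68 nt (TRL-CAA1-2, replicate 2, positions 34 to 101). In WT input TRL-CAA4-1 had a peak of 35 nt in replicate 1.

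The 3 locus peaks without the wobble base lay 3′ of it. TRL-CAA4-1 had such a peak in WT IP replicate 1, from position 58 to 98 with 329 counts, and in WT input replicate 1, from 58 to 92 with 15 counts. TRL-CAA1-1 had one in WT IP replicate 1, from 61 to 96 with 114 counts. Each TRL-CAA4-1 peak held 3 intron bases and the TRL-CAA1-1 peak held 1, so most of their listed positions lay past the intron. Whether those cDNAs came from RNA that still held the intron was not tested. In WT IP replicate 2 the same loci had peaks from -1 to 98 and from -6 to 92, where 0 is the base before the gene, so these narrow peaks did not recur between replicates.

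The study's peak filter asked for more than 10 counts in both IP replicates, and for a ratio of IP over input above 1.5 unless the input had no peak. Taken on peaks of WT IP replicate 1 it kept 8 of 9 members and 165 of 568 peaks in all (29%). The ratio of CPM was 4.66 for 1-1/1-2, 5.78 for 2-1, 8.29 for 3-1 and 13.3 for 4-1, and 10.7, 16.5, 24.3 and 29.3 for TRL-CAA1-2, TRL-CAA1-1, TRL-CAA3-1 and TRL-CAA4-1. The peak on 6-1 failed for want of a second replicate. In KO cells it kept 1 of 7 members, TRL-CAA3-1 at a ratio of 1.96, beside 32.1% of 402 peaks. The remaining KO ratios were 0.573 for 1-1/1-2, 0.565 for 4-1, 1.26 for TRL-CAA1-2 and 1.11 for TRL-CAA1-1.

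Requiring absence from the KO left fewer, depending on what absence meant. Of the 8 WT member peaks kept, 7 overlapped no KO peak that the filter kept, beside 108 of all 165 WT peaks kept. With no listed KO IP peak allowed at all 1 of the 8 was left, TRL-CAA4-1, beside 72 of 165. The text of the study also words the rule without a ratio, asking that a peak be missing from the input. All 8 members had a peak in both WT inputs, so 0 of 8 met that wording, beside 72 of 165.

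Over the 8 libraries the anticodon sums most like tRNA-Leu-CAA were Thr-CGT (Pearson r of log2 CPM 0.80), Arg-CCT (0.68) and Phe-GAA (0.66), out of 35 other anticodons with a peak in every library. These values describe 8 libraries in 4 groups that share scaling.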

How the data were processed

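Human HEK-293 RNA was measured by aldehyde-reactive probe sequencing in 8 libraries (4 groups of 2, taken from the labels). Per the study's methods, the authors removed PCR duplicates with unique molecular identifiers, mapped reads with STAR to tRNA and rRNA and the rest, if unique, to GRCh38, and called peaks with Paraclu in each library. The deposited values are cDNA counts per peak, not normalized. How reads shared by tRNA references were assigned is not given in the sources used here. The columns matched a 0-based BED layout (lowest start 1 and shortest peak 2 nt) and were written here 1-based.

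Peaks of all libraries were joined into regions where they shared 1 nt or more on a strand. Regions, anticodon sums and reference sums, if listed in each library a fit used, went into a two-sided quasi-likelihood F test (edgeR 4.0.16 under R 4.3.3, TMM factors, Benjamini-Hochberg adjustment over all features of the fit, threshold 0.05), and relative changes with its diffSpliceDGE, whose natural-log coefficients were turned into log2. CPM used summed peak counts. A sum counted a reference with no peak as 0. SE was the log2 fold change over the square root of F. DESeq2 1.42.0 was an alternative. All 26 reference names but 1 were in the GRCh38 FASTA, and no peak ran past a sequence end. Every member was named, of other tRNAs only leucine ones, mt-tRNA-Met and the 3 most alike anticodons. The members and lists were chosen with earlier results of these data known. The tests were tried on simulated data. Depth is known only as summed peak counts. Python 3.11.15 was used. TRL-CAA6-1 was oriented by the 12 bases it shares with the other genes at the start. The labels do not say that replicate numbers pair the libraries. The spike-in was not analysed here.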

Additional observations from a re-analysis of the deposited data

Results flagged for a closer look

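Several results stood out because the pulldown effect in WT and that in KO differed by the interaction test. The difference was 4.32 on the log2 scale for the mature tRNA-Leu-CAA sum, and 2.91 for tRNA-Leu-CAA relative to leucine tRNA as a whole. Among mature references it was 4.92 for tRNA-Leu-CAA-4-1 and 3.40 for 1-1/1-2. Among loci it was 4.16 for TRL-CAA1-1, 3.95 for TRL-CAA3-1 and 3.50 for TRL-CAA1-2. All compare the same 8 libraries and are not independent of each other. No group had the 4 libraries needed for a test of outlying samples.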

How the results depend on the processing

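Of 237 alternatives to 22 results that answer a comparison, 211 kept the direction and the side of the threshold, and of 497 alternatives to 39 results for single members 468 did. Counts of members called moved as follows. A common floor of 207 CPM left fewer to test: 5 of 5 were called for WT IP against WT input (beside 97 of all 205 regions), 1 of 2 for KO IP against KO input (107 of 201), 3 of 3 between the IPs (71 of 201), 1 of 5 between the inputs (116 of 251) and 2 of 2 in the interaction (52 of 158). With a mean count of at least 50, 1 of 2 was called for KO IP against KO input (110 of 201) and 1 of 5 between the inputs (125 of 284), RLE scaling called 1 of 8 between the inputs (146 of 400), and DESeq2 called 0 of 5 for KO IP against KO input (98 of 246). With missing peaks at 0, 8 of 8 were called between the IPs (208 of 429), and with them at 10 counts, 8 of 8 between the IPs (153 of 429) and in the interaction (151 of 853). Between the IPs, TRL-CAA4-1, 2-1 and 3-1 entered only through their WT IP peaks, so their calls were largely fixed in advance. Missing peaks at 0 took tRNA-Leu-CAA relative to leucine tRNA in KO to -0.96, and other leucine anticodons as library sizes took the sum between the inputs to -0.20. The cause was not tested, except that floors and count minimums remove features by construction.

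Leaving out 1 library gave ranges of 0.92 to 0.99 for loci against mature RNA in WT, 0 to 1 for isodecoders called in WT, -1.38 to -0.74 for tRNA-Leu-CAA relative to leucine tRNA in KO, 1 to 3 for members called in KO (1 without KO IP replicate 1), and 4.00 to 4.45 for the sum between the IPs. Where a group was left with 1 library, it was assumed to vary like the other group.

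Signs turned for values near 0. TRL-CAA1-2 in KO was -0.033 with missing peaks at 10, and between the inputs it ran from -0.32 to 0.028 with a library left out. TRL-CAA1-1 in KO was -0.070 and -0.17 with missing peaks at 0 and 10, and ran from -0.092 to 0.095. tRNA-Leu-CAA-4-1 between the inputs was 0.064 with RLE, 0.033 with the floor, 0.099 with the count minimum and 0.066 with DESeq2, and ran from -0.19 to 0.10.

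The replicate numbers were not stated to pair libraries. Deviations of replicate 1 correlated between groups at 0.49 (WT IP and WT input), 0.23 (KO IP and KO input), 0.31 (IPs) and 0.17 (inputs) over 186 regions. With the replicate number as a block, loci against mature RNA in WT stayed at 0.95 and passed (edgeR adjusted p = 0.00519), 1 isodecoder, tRNA-Leu-CAA-4-1, passed between the IPs (0.78, adjusted p = 0.0442) and 1, again 4-1, in the interaction (1.12, adjusted p = 0.0232), and tRNA-Leu-CAA-4-1 between the inputs was 0.0014. The block changed no other call. Adding TRL-CAA2-1 to the loci, an alternative chosen after seeing the data, gave 0.80 in WT (adjusted p = 0.149), 0.79 in KO (adjusted p = 0.269) and 0.02 in the interaction (adjusted p = 0.997), edgeR. In the KO IPs 10 counts are worth 187 and 192 CPM, so members below that level could not be seen there.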

Other observations

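The intron-holding gene TRL-CAA2-1 lies outside the 4 windows, at chr6:27605638-27605745 on the minus strand, and gives rise to the mature sequence of tRNA-Leu-CAA-2-1. Its intron of 24 nt is longer than those of the 4 loci. WT inputs listed 15 and 19 counts over it and WT IPs 70 and 56, while KO had 10 counts in input replicate 2 and no peak in its other libraries.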
